A study of Mus musculus with 15 samples.

Results

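The collagen genes are the large gene family that encodes the chains of the collagens, the main structural proteins of the extracellular matrix. All genes whose symbol reads Col, a number, the letter a and a number were taken from the array table of 15 mouse mammary tumors. This gave 44 collagen genes of 22180 genes with a value, and these are all 44 genes of that pattern in the RefSeq gene table. They were grouped as 11 fibrillar collagens, 8 basement membrane collagens, 9 fibril-associated collagens with interrupted triple helices (FACIT) and 16 others. Genes entered the tests if they exceeded the median of the array in 5 tumors or more. By that rule 38 of the 44 collagen genes were tested, namely 11 fibrillar, 6 basement membrane, 8 FACIT and 13 other genes. The 6 that were not tested, Col4a3, Col4a4, Col19a1, Col6a4, Col6a5 and Col28a1, lay below the array median on all 15 arrays, at values between 4.28 and 5.54.

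The tumors came from ErbB2KI mice, which carry an activated Erbb2 (the mouse counterpart of HER2) and develop mammary tumors. Frozen tumors taken at end burden were compared between Ctnnb1 wt/wt (called WT here), Ctnnb1 fl/wt (HET) and Ctnnb1 fl/fl (HOM), with 5 tumors each and 1 array per tumor. All 3 groups share the ErbB2KI background. The floxed alleles serve to delete beta-catenin in the mammary epithelium, so stromal cells are not the cells meant to be targeted. In which cells deletion took place was not measured here. The sources used here give neither the Cre driver nor the age of the mice, nor whether each tumor is from its own mouse. Tumors that share a mouse would not be independent, and the p-values would then be too small. Every p-value here reflects tumor-to-tumor spread, which may also be partly technical.

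A collagen molecule is a triple helix of 3 chains, which are either identical or products of different genes. Fibrillar collagens such as types I and III assemble into the cable-like fibrils of connective tissue and are made mainly by fibroblasts. Type IV collagen forms the sheet-like network of basement membranes under epithelia and around vessels, and FACIT collagens sit on the surface of fibrils. In mammary tumors collagen is a hallmark of the stroma, while some chains, such as that of type XVII, are made by the epithelial cells themselves. In whole-tumor RNA, fewer cells of a type and less RNA per cell cannot be told apart.

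All values are log2 array values, so a difference of 1 is a 2-fold difference, and values of different genes are not compared because each probe set has its own response. Array medians lay between 5.54 and 5.73. Ctnnb1 itself averaged 11.84 ± 0.39 in the WT, 11.50 ± 0.19 in the HET and 11.48 ± 0.33 in the HOM tumors (SD, n = 5 each). The differences of -0.34 for HET and -0.36 for HOM against WT did not pass a two-sided exact permutation test (p = 0.0952 and 0.143, adjusted over the 3 comparisons 0.214 for both, smallest possible p 0.00794). HOM differed from HET by -0.02 (exact permutation p = 0.905). The tumor labelled WT 5 had a low Ctnnb1 value of 11.21 and the tumor labelled HOM 5 a high one of 12.01, so both went against their labels. Without WT 5 the Ctnnb1 differences came to -0.49 for HET and -0.51 for HOM (exact permutation p = 0.00794 and 0.0317, not adjusted). WT 5 was singled out by its Ctnnb1 value itself, so these p-values cannot count as a test passed. The array reads RNA of the whole tumor, stromal cells included, and which exons its Ctnnb1 probes cover is not given.

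The spread between tumors was wide for many collagen genes. The median SD over the 15 tumors was 0.775 for the 38 tested collagen genes and 0.313 for all 14243 tested genes. Within the family it was 0.909 for the fibrillar, 0.774 for the basement membrane, 0.678 for the FACIT and 0.744 for the other collagens. The genes with the largest SD were Col17a1 (1.54), Col12a1 (1.5), Col8a1 (1.31), Col3a1 (1.27) and Col11a1 (1.23).

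Most of this variation ran between single tumors and not between genotypes. HET 4 held the highest value of 20 of the 38 collagen genes, among them 7 of the 11 fibrillar genes. The lowest value fell in WT 1 for 13 genes, in HET 1 for 10 and in HET 5 for 9. The mean of the 11 fibrillar genes was 6.52 in WT 1 and 6.82 in HET 5, against 9.0 in HET 4 and 8.44 in HOM 5, and lay between 7.22 and 8.19 in the other 11 tumors. A tumor low and a tumor high in fibrillar collagen RNA therefore occurred within the same HET genotype. HET 5 was not low in every class, since its basement membrane mean was 7.94, which is 0.122 above the mean of the 15 tumors.

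**Figure D1:**
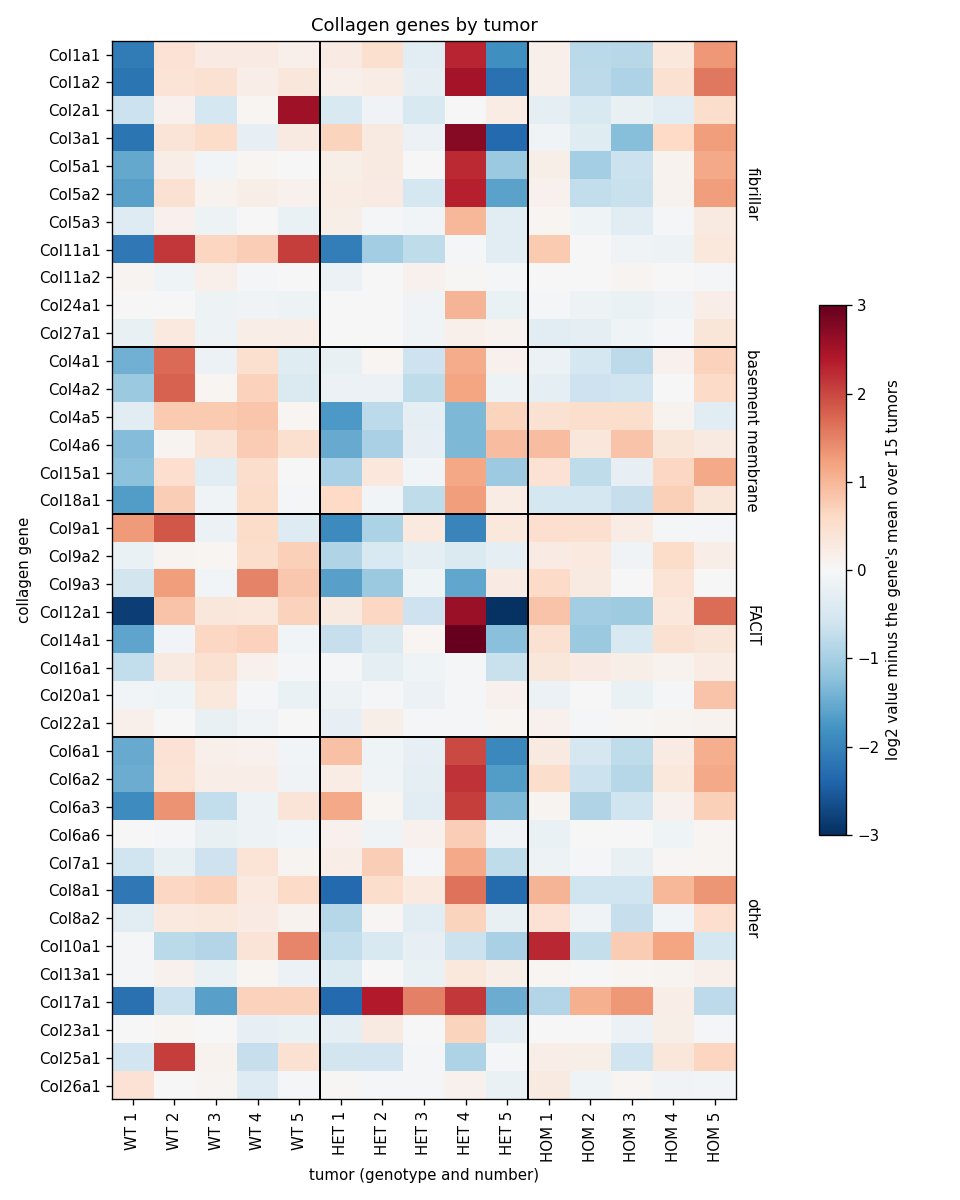
Heat map of the 38 tested collagen genes (rows, by class) in the 15 tumors (columns, by genotype). Colors give the log2 value minus the gene's mean over the 15 tumors, red above and blue below it. The WT 1 and HET 5 columns are blue and the HET 4 column red for most fibrillar genes, whereas Col4a5, Col4a6, Col9a1 and Col9a3 are blue in HET 1, HET 2 and HET 4.

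Among the fibrillar collagens, Col1a1 encodes the main chain of type I collagen, the most abundant collagen of connective tissue. Its values were 8.51, 11.05, 10.87, 10.86 and 10.78 in WT 1 to WT 5, 10.86, 11.11, 10.31, 12.91 and 8.79 in HET 1 to HET 5, and 10.78, 9.80, 9.78, 10.93 and 11.93 in HOM 1 to HOM 5. WT 1 and HET 5 stood low, HET 4 and HOM 5 stood high, and the 3 genotypes overlapped. The means were 10.41 ± 1.07 in WT, 10.79 ± 1.49 in HET and 10.64 ± 0.89 in HOM (SD, n = 5 each). Col1a2, the partner chain in the same type I molecule, averaged 9.60 ± 1.14 in WT, 9.83 ± 1.69 in HET and 9.85 ± 1.02 in HOM, with the same tumors at both ends.

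Col3a1 encodes type III collagen, which forms fibrils together with type I in soft tissues. It measured 6.95, 9.54, 9.69, 8.90 and 9.41 in WT 1 to WT 5, 9.81, 9.41, 8.98, 11.88 and 6.80 in HET 1 to HET 5, and 9.03, 8.78, 7.86, 9.73 and 10.40 in HOM 1 to HOM 5. The range of HET contained that of WT and that of HOM, because HET 5 was the lowest and HET 4 the highest of all 15 tumors. Over the 15 tumors Col3a1 ran over about the same pattern as Col1a1 (Pearson r = 0.969, Spearman rho = 0.907).

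The stretches of the genome just upstream of Col1a2 and Col3a1 are shown because these genes moved together across tumors. They are read 5′ to 3′ on the gene's strand from the RefSeq promoter table of GRCm38.p6 and end at the base before the annotated start. Capitals mark the first motif match, CCAAT in Col1a2 and TATAAA in Col3a1, when both strands were searched for these letters. Col1a2 lies at chr6:4505368-4505617 on the plus strand and Col3a1 at chr1:45311288-45311537 on the plus strand.
Col1a2: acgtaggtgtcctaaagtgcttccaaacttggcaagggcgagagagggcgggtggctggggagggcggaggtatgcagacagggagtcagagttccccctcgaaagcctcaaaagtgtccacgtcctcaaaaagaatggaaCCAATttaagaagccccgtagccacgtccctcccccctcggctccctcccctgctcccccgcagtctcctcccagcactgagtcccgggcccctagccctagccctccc
Col3a1: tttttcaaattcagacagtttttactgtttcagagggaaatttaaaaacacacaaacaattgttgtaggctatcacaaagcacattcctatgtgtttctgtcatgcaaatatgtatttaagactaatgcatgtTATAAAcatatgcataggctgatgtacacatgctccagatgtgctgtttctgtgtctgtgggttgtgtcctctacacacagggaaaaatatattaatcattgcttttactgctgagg
The CCAAT of Col1a2 begins 109 bases upstream of the start, and the TATAAA of Col3a1 begins 117 bases upstream. Of 38 promoter windows of 250 bases listed for 35 collagen genes, 13 (34.2%) held CCAAT and 5 (13.2%) held TATAAA on either strand. The shares over all 32851 windows of the table were 33.8% and 12.4%, so both motifs occurred among collagen genes about as often as elsewhere. A match is a description of letters only and not evidence of a bound factor.

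Type V collagen is a minor component that sits inside type I fibrils and sets their diameter. Col5a1 averaged 7.53 ± 0.71 in WT, 8.12 ± 1.22 in HET and 7.75 ± 0.83 in HOM. Col5a2 averaged 7.71 ± 0.84 in WT, 8.0 ± 1.44 in HET and 7.88 ± 0.81 in HOM. Col5a3 averaged 6.72 ± 0.19 in WT, 6.98 ± 0.51 in HET and 6.81 ± 0.22 in HOM. WT 1 was the lowest tumor and HET 4 the highest for each of these 3 genes. The second array cluster of Col5a1 was dim, at 5.26 to 6.12, and correlated with the one used at r = 0.473 over the 15 tumors, so the Col5a1 values rest on 1 cluster.

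Col11a1 and Col2a1 are best known from cartilage, where types XI and II form fibrils together. The Col11a1 values were 5.15, 9.41, 7.94, 8.03 and 9.36 in WT 1 to WT 5, 5.22, 6.24, 6.53, 7.24 and 6.95 in HET 1 to HET 5, and 8.07, 7.28, 7.18, 7.13 and 7.61 in HOM 1 to HOM 5. Col11a1 was low in both WT 1 and HET 1 and above 9 in WT 2 and WT 5. Col2a1 measured 9.36 in WT 5 and between 6.19 and 7.36 in the other 14 tumors, so WT 5 stood alone. The mean of 4 tested cartilage and bone markers (Comp, Chad, Sox9 and Alpl) was also highest in WT 5, at 8.91, against 6.26 to 8.52 in the other tumors, and its part in the Col2a1 value was not tested. Acan, Hapln1, Matn1 and Matn3, markers that define cartilage, were not tested because fewer than 5 arrays exceeded the median. Among them, Acan, the main cartilage proteoglycan, stood at 9.29 in WT 5 and 10.59 in HET 1 and at no more than 5.39 elsewhere, and Hapln1, its link protein, at 8.88 in WT 5 and at most 4.78 elsewhere. Matn1 (4.30 to 4.93) and Matn3 (5.09 to 5.73) were low in all 15 tumors, WT 5 included. Col11a2 (5.79 to 6.11), Col24a1 (5.55 to 6.77) and Col27a1 (6.52 to 7.23) encode less abundant fibrillar chains and had narrow ranges, apart from Col24a1 in HET 4, where the highest value lay.

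Among basement membrane collagens, Col4a1 and Col4a2 encode the chains of the common type IV network. Col4a1 measured 7.34, 10.5, 8.63, 9.27 and 8.44 in WT 1 to WT 5, 8.58, 8.86, 8.18, 9.91 and 8.92 in HET 1 to HET 5, and 8.61, 8.28, 8.02, 8.91 and 9.48 in HOM 1 to HOM 5. The highest and the lowest tumor, WT 2 and WT 1, both were WT, so the WT range contained those of HET and HOM. The Col4a1 means were 8.84 ± 1.16 in WT, 8.89 ± 0.64 in HET and 8.66 ± 0.57 in HOM. Col4a2 averaged 8.54 ± 1.10 in WT, 8.33 ± 0.72 in HET and 8.16 ± 0.50 in HOM, also with WT 2 highest and WT 1 lowest.

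Col4a1 and Col4a2 lie head to head and are transcribed in opposite directions. Their annotated first transcripts overlap by 22 bases at chr8:11312805-11312826 of GRCm38.p6, shown on the plus strand, which is that of Col4a2, as the sequence that both genes share at their starts, with no capitals.
Col4a2 and Col4a1 overlap: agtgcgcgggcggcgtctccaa
Across the 15 tumors the values of these 2 genes correlated at r = 0.973.

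Col4a5 and Col4a6 are the second head-to-head pair of the type IV family, on the X chromosome, and encode chains of a basement membrane network that epithelia make. Col4a5 measured 6.47, 7.60, 7.59, 7.63 and 6.86 in WT 1 to WT 5, 5.09, 6.02, 6.54, 5.46 and 7.48 in HET 1 to HET 5, and 7.26, 7.33, 7.34, 6.92 and 6.48 in HOM 1 to HOM 5. HET 1, HET 4 and HET 2 were the lowest of the 15 tumors, while HET 5 lay at the level of the WT and HOM tumors. The Col4a6 values were 5.72, 7.11, 7.41, 7.79 and 7.50 in WT 1 to WT 5, 5.53, 6.05, 6.78, 5.69 and 7.95 in HET 1 to HET 5, and 7.94, 7.36, 7.87, 7.40 and 7.31 in HOM 1 to HOM 5. HET 1, HET 4, WT 1 and HET 2 were lowest here, and HET 5 was the highest of all tumors, so that HET overlapped both other genotypes. HOM was tight, with 7.11 ± 0.81 in WT, 6.40 ± 0.99 in HET and 7.58 ± 0.31 in HOM (SD, n = 5 each).

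The regions upstream of Col4a5 and Col4a6 are shown because these neighbors moved together and in a different way from Col4a1 and Col4a2. Their annotated starts lie 1343 bases apart. The stretches are taken from the RefSeq table of GRCm38.p6 on each gene's own strand, without the bases inside an annotated gene model. Col4a5 is shown at chrX:141475169-141475369 on the plus strand and Col4a6 at chrX:141474096-141474326 on the minus strand, with capitals marking CCAAT.
Col4a5: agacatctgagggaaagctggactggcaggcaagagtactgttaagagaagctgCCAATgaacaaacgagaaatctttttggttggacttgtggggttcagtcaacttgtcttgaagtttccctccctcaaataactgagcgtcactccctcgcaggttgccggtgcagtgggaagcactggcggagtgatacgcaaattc
Col4a6: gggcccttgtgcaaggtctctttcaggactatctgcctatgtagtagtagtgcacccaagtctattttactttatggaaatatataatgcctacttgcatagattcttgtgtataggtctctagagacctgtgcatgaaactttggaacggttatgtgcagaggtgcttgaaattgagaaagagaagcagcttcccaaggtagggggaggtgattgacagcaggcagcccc
The Col4a5 stretch held 1 CCAAT, and the Col4a6 stretch held neither CCAAT nor TATAAA, which says only that these letters are not in this window.

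Col15a1 and Col18a1 encode basement membrane collagens with long interrupted helices, and type XVIII is the source of endostatin. Col15a1 averaged 7.34 ± 0.73 in WT, 7.31 ± 0.94 in HET and 7.68 ± 0.75 in HOM. Col18a1 averaged 8.37 ± 0.95 in WT, 8.72 ± 0.75 in HET and 8.35 ± 0.63 in HOM. WT 1 was lowest and HET 4 highest for both. Col4a3 (5.01 to 5.54) and Col4a4 (4.78 to 5.41), chains of the kidney glomerular membrane, were below the filter in all tumors.

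The FACIT class includes the chains of type IX collagen, which coats type II fibrils in cartilage. Col9a2 measured 7.50, 7.80, 7.77, 8.23 and 8.43 in WT 1 to WT 5, 6.80, 7.24, 7.43, 7.28 and 7.42 in HET 1 to HET 5, and 7.95, 8.0, 7.61, 8.27 and 7.91 in HOM 1 to HOM 5. All 5 HET tumors lay below all WT and all HOM tumors. The gap was small, since HET 3 at 7.43 was the highest HET tumor, WT 1 at 7.50 the lowest WT tumor and HOM 3 at 7.61 the lowest HOM tumor. Col9a2 averaged 7.95 ± 0.38 in WT, 7.23 ± 0.26 in HET and 7.95 ± 0.24 in HOM (SD, n = 5 each).

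The other type IX chains overlapped between genotypes. Col9a3 measured 7.42, 9.22, 7.89, 9.45 and 8.79 in WT 1 to WT 5, 6.35, 6.87, 7.85, 6.41 and 8.22 in HET 1 to HET 5, and 8.54, 8.25, 7.99, 8.38 and 7.96 in HOM 1 to HOM 5. HET 1, HET 4 and HET 2 were the lowest of the 15 tumors, whereas HET 5 fell inside the WT and HOM ranges and HET 3 inside that of WT only. Col9a1 measured 9.97, 10.54, 8.51, 9.24 and 8.31 in WT 1 to WT 5, 6.79, 7.75, 8.98, 6.71 and 9.02 in HET 1 to HET 5, and 9.19, 9.18, 8.92, 8.62 and 8.62 in HOM 1 to HOM 5. The same 3 HET tumors were lowest, and WT 2 and WT 1 were highest, although WT 1 was among the lowest tumors for the fibrillar genes. The region upstream of Col9a2 at chr4:121039316-121039565 on the plus strand of GRCm38.p6, from the RefSeq table, is given because only this collagen gene had HET values clear of both other genotypes, and it held neither motif.
Col9a2: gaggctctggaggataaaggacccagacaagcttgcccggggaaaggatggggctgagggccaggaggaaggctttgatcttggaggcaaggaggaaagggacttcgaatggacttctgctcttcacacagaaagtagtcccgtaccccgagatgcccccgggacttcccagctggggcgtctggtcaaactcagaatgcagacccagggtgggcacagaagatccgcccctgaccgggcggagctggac

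Col12a1 and Col14a1 encode collagens that decorate type I fibrils. Col12a1 measured 7.31, 10.99, 10.47, 10.43 and 10.81 in WT 1 to WT 5, 10.38, 10.74, 9.51, 12.71 and 7.16 in HET 1 to HET 5, and 10.97, 9.08, 9.05, 10.45 and 11.81 in HOM 1 to HOM 5. It followed the fibrillar pattern, with HET 5 and WT 1 lowest, the next tumor at 9.05 and HET 4 highest. Col14a1 averaged 8.17 ± 0.92 in WT, 8.39 ± 1.68 in HET and 8.20 ± 0.70 in HOM. Its value in HET 4 at 11.28 lay well above the next tumor at 8.94.

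Col16a1, a FACIT collagen of fibroblasts and smooth muscle, averaged 7.33 ± 0.46 in WT, 7.09 ± 0.26 in HET and 7.53 ± 0.08 in HOM. The 5 HOM tumors lay between 7.43 and 7.65, above all HET tumors (6.65 to 7.29) and inside the WT range (6.58 to 7.77). Col20a1 ranged from 5.81 to 6.87, with HOM 5 highest and no other tumor above 6.32. Col22a1, known from tissue junctions, ranged only from 5.48 to 5.89. Col19a1 (4.81 to 5.27) was below the filter.

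In the remaining class, type VI collagen forms the beaded filaments around cells and is made largely by fibroblasts. Col6a1 measured 7.86, 9.80, 9.53, 9.51 and 9.29 in WT 1 to WT 5, 10.25, 9.23, 9.12, 11.34 and 7.44 in HET 1 to HET 5, and 9.63, 8.85, 8.60, 9.61 and 10.47 in HOM 1 to HOM 5. HET 5 and WT 1 were the lowest tumors, HET 4 and HOM 5 the highest, and the genotypes overlapped. Col6a2 averaged 8.63 ± 0.77 in WT, 8.85 ± 1.38 in HET and 8.88 ± 0.83 in HOM. Col6a3 averaged 8.48 ± 1.21 in WT, 9.0 ± 1.32 in HET and 8.57 ± 0.64 in HOM. In Col6a3, HET 1 and WT 2 ranked just below HET 4. Col6a6 (5.42 to 6.39) was above the array median in 7 tumors only, and Col6a4 and Col6a5 in none.

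Col8a1 and Col8a2 encode the chains of type VIII collagen, a short network collagen of vessels and stroma. Col8a1 measured 7.49, 10.25, 10.32, 9.94 and 10.23 in WT 1 to WT 5, 7.30, 10.16, 9.94, 11.27 and 7.34 in HET 1 to HET 5, and 10.67, 9.05, 9.05, 10.63 and 10.96 in HOM 1 to HOM 5. HET 1, HET 5 and WT 1 stood apart at 7.30 to 7.49, and the other 12 tumors began at 9.05. Col8a2 averaged 6.13 ± 0.27 in WT, 5.88 ± 0.55 in HET and 6.03 ± 0.48 in HOM, also with HET 1 lowest.

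Type XVII collagen, encoded by Col17a1, is a transmembrane protein of the hemidesmosomes that anchor basal epithelial cells, and type VII, encoded by Col7a1, forms the anchoring fibrils beneath them. Col17a1 measured 5.90, 7.49, 6.52, 8.83 and 8.83 in WT 1 to WT 5, 5.82, 10.52, 9.66, 10.25 and 6.65 in HET 1 to HET 5, and 7.27, 9.20, 9.44, 8.35 and 7.36 in HOM 1 to HOM 5. HET 2, HET 4 and HET 3 were the highest of all tumors while HET 1 was the lowest, so HET spanned the whole range. Col7a1 averaged 6.86 ± 0.45 in WT, 7.30 ± 0.73 in HET and 6.98 ± 0.12 in HOM, with HET 4 highest and HET 5 lowest.

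Col10a1, the collagen of hypertrophic cartilage, measured 5.94, 5.19, 5.14, 6.38 and 7.46 in WT 1 to WT 5, 5.26, 5.55, 5.76, 5.37 and 5.03 in HET 1 to HET 5, and 8.26, 5.29, 6.76, 7.18 and 5.49 in HOM 1 to HOM 5. HOM 1 was highest, followed by WT 5 and HOM 4, and the HET tumors stayed between 5.03 and 5.76. Col25a1, a transmembrane collagen known from neurons, stood at 8.64 in WT 2 and at no more than 7.21 elsewhere. Col13a1 (5.77 to 6.50) and Col23a1 (6.35 to 7.28), also transmembrane collagens, and Col26a1 (6.38 to 7.20) had narrow ranges.

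**Figure D2:**
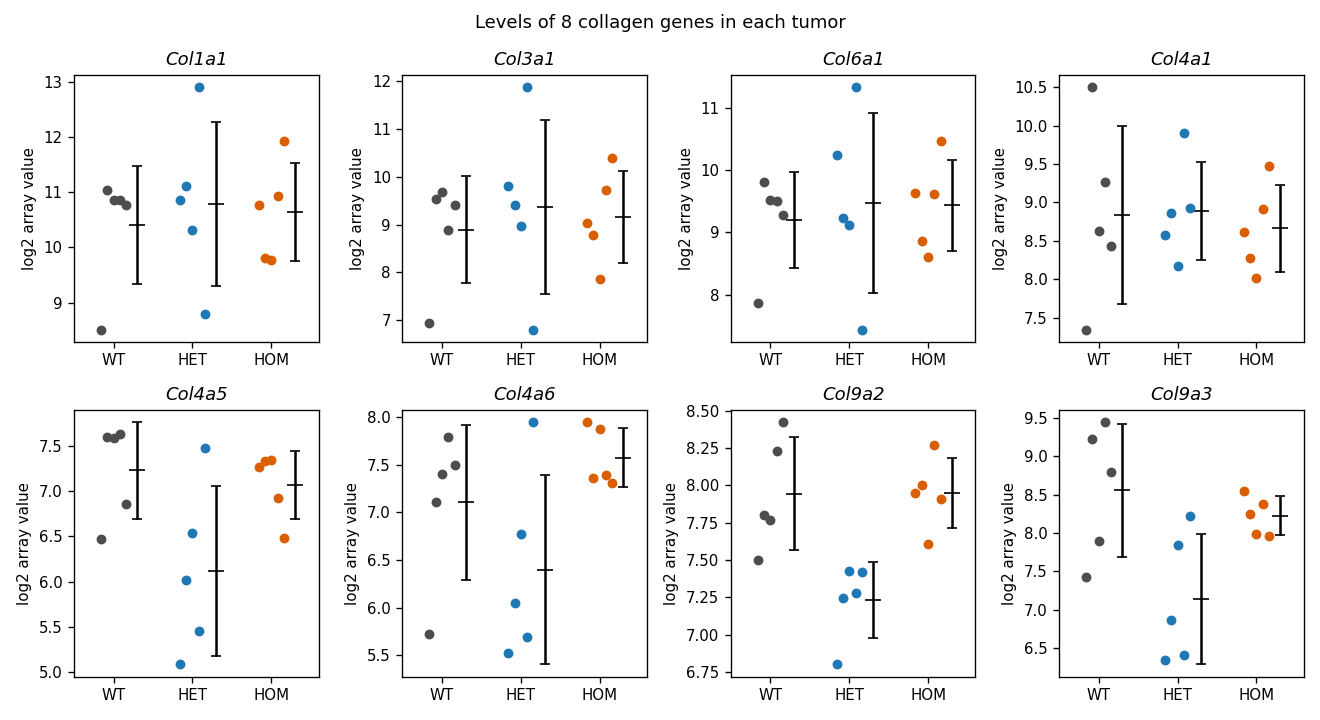
Log2 array values of 8 collagen genes in each of the 15 tumors (points, ordered by tumor number within a genotype), with the group mean and SD beside them (horizontal and vertical bars, n = 5). The vertical axes differ between panels and do not start at 0. For Col9a2 the 5 HET points lie between 6.80 and 7.43, below every WT and HOM point, while for Col3a1 and Col6a1 the HET points span the range of the other genotypes.

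The comparison of HET with WT asks whether collagen expression differed in tumors with 1 floxed Ctnnb1 allele. None of the 38 tested collagen genes passed an adjusted p of 0.05 in the limma fit over all tested genes, against 0.014% of all 14243 genes (2 genes). At an unadjusted p below 0.05, 5 collagen genes were lower in HET and 0 higher, which is 5 of 38 where 13.4% of all genes passed in either direction, so the share of collagen genes was near the background. These 5 were Col9a2, Col9a3, Col9a1, Col4a5 and Col11a1. Values without overlap between HET and WT occurred for 1 collagen gene, Col9a2, and for 1.58% of all genes.

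Col9a2 differed by -0.71 in HET against WT (SE 0.18, 95% interval -1.11 to -0.32, adjusted p = 0.212) and its level was 0.611 times that of WT. For Col9a3 the difference was -1.42 (SE 0.42, adjusted p = 0.226), and for Col9a1 it was -1.47 (SE 0.51, adjusted p = 0.264). Col4a5 differed by -1.11 (SE 0.39, adjusted p = 0.268), its neighbor Col4a6 by -0.71 (SE 0.45, adjusted p = 0.493) and Col11a1 by -1.55 (SE 0.65, adjusted p = 0.337). In HET 1, HET 2 and HET 4, the 3 tumors with the lowest Col9a3 and Col4a5, Sox10, a transcription factor of Schwann cells that mammary epithelium also makes, was low as well, at 6.92 to 8.14 against at least 10.47 in the other 12 tumors. These 3 tumors had Col9a3 at 6.35 to 6.87 against 7.42 to 9.45 in the other 12, and Col9a2 at 6.80 to 7.28 against 7.42 to 8.43. The other 12 tumors hold only the high Sox10 values, so a lack of correlation among them says nothing about the 3 low tumors. Within those 12 tumors none of the 38 collagen genes correlated with Sox10 after adjustment (permutation test of Pearson r, lowest adjusted p = 0.626). Col9a3 had r = 0.556 there, and -0.035 without WT 4 and HOM 1, and Col4a5 had r = 0.236. Sox10 was looked at after these values were seen, and its part in the differences between genotypes was not tested.

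The main stromal collagens did not pass in HET against WT. Col1a1 differed by 0.38 (SE 0.69, 95% interval -1.09 to 1.86, adjusted p = 0.831), Col3a1 by 0.48 (SE 0.79, interval -1.21 to 2.17, adjusted p = 0.814) and Col4a1 by 0.05 (SE 0.49, interval -1.0 to 1.10, adjusted p = 0.974). These intervals still allow differences of more than 2-fold in either direction for Col1a1 and Col3a1. The sign of all 3 differences hung on single tumors, since Col1a1 came to -0.09 without WT 1 and -0.15 without HET 4, Col3a1 to -0.01 and -0.15, and Col4a1 to -0.32 and -0.20. The median difference was 0.0268 over the 38 collagen genes and -0.0299 over all tested genes. By class it was 0.228 for fibrillar, -0.12 for basement membrane, -0.132 for FACIT and 0.162 for other collagens.

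The comparison of HOM with WT concerns tumors in which both Ctnnb1 alleles were floxed. No collagen gene passed, in a comparison where 0% of all genes (0 of 14243) passed an adjusted p of 0.05. Without WT 5 and HOM 5, 4 genes of the whole table passed and again 0 collagen genes. At an unadjusted p below 0.05 the count was 0 of 38, against 1.7% of all genes, and 0 collagen genes had values without overlap, against 0.281% of all genes. Adjusted p-values of the collagen genes all rounded to 1. The 5 collagen genes with the smallest p were Col16a1 (difference 0.20, SE 0.19), Col10a1 (0.57, SE 0.54), Col4a6 (0.47, SE 0.45), Col27a1 (-0.15, SE 0.14) and Col2a1 (-0.46, SE 0.47). The Col2a1 difference came to 0.09 without WT 5.

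Col1a1 differed by 0.23 in HOM against WT (95% interval -1.24 to 1.70) and Col3a1 by 0.26 (interval -1.43 to 1.96), while Col4a1 came to -0.18 (interval -1.23 to 0.87), and the adjusted p from limma was 1 for each. Without WT 1 the Col1a1 and Col3a1 differences turned to -0.25 and -0.22, without HOM 5 to -0.09 and -0.05, and Col4a1 turned to 0.24 without WT 2. The Col9a2 difference was 0.00 (interval -0.39 to 0.40). Over the 38 collagen genes the median difference was 0.0926, beside -0.0117 over all tested genes. Class medians were 0.0898 for fibrillar, -0.0927 for basement membrane, 0.0632 for FACIT and 0.119 for other collagens.

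HOM and HET were both set against the same WT tumors above, so their own comparison is given too. In HOM against HET, 0 of 38 collagen genes passed an adjusted p of 0.05, as did 0% of all genes, and without WT 5 and HOM 5 it was 0 collagen genes and 6 of all genes. At an unadjusted p below 0.05, 6 collagen genes were higher in HOM and 0 lower, beside 7.93% of all genes in either direction. Col9a2 (difference 0.71, SE 0.18, adjusted p = 0.587) and Col16a1 (0.45, SE 0.19, adjusted p = 0.597) had values without overlap, beside 1.03% of all genes. The other four were Col4a6 at 1.18 (adjusted p = 0.587), Col9a3 at 1.09 (adjusted p = 0.587), Col4a5 at 0.95 (adjusted p = 0.589) and Col10a1 at 1.2 (adjusted p = 0.618). Col1a1, Col3a1 and Col4a1 differed by -0.15, -0.22 and -0.23 (adjusted p = 0.966, 0.955 and 0.92), and all 3 were positive without HET 4, at 0.38, 0.41 and 0.03. The median difference was 0.0119 for the collagen genes and 0.0139 for all tested genes, with class medians of -0.114 (fibrillar), 0.102 (basement membrane), 0.31 (FACIT) and 0.0189 (other).

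**Figure D3:**
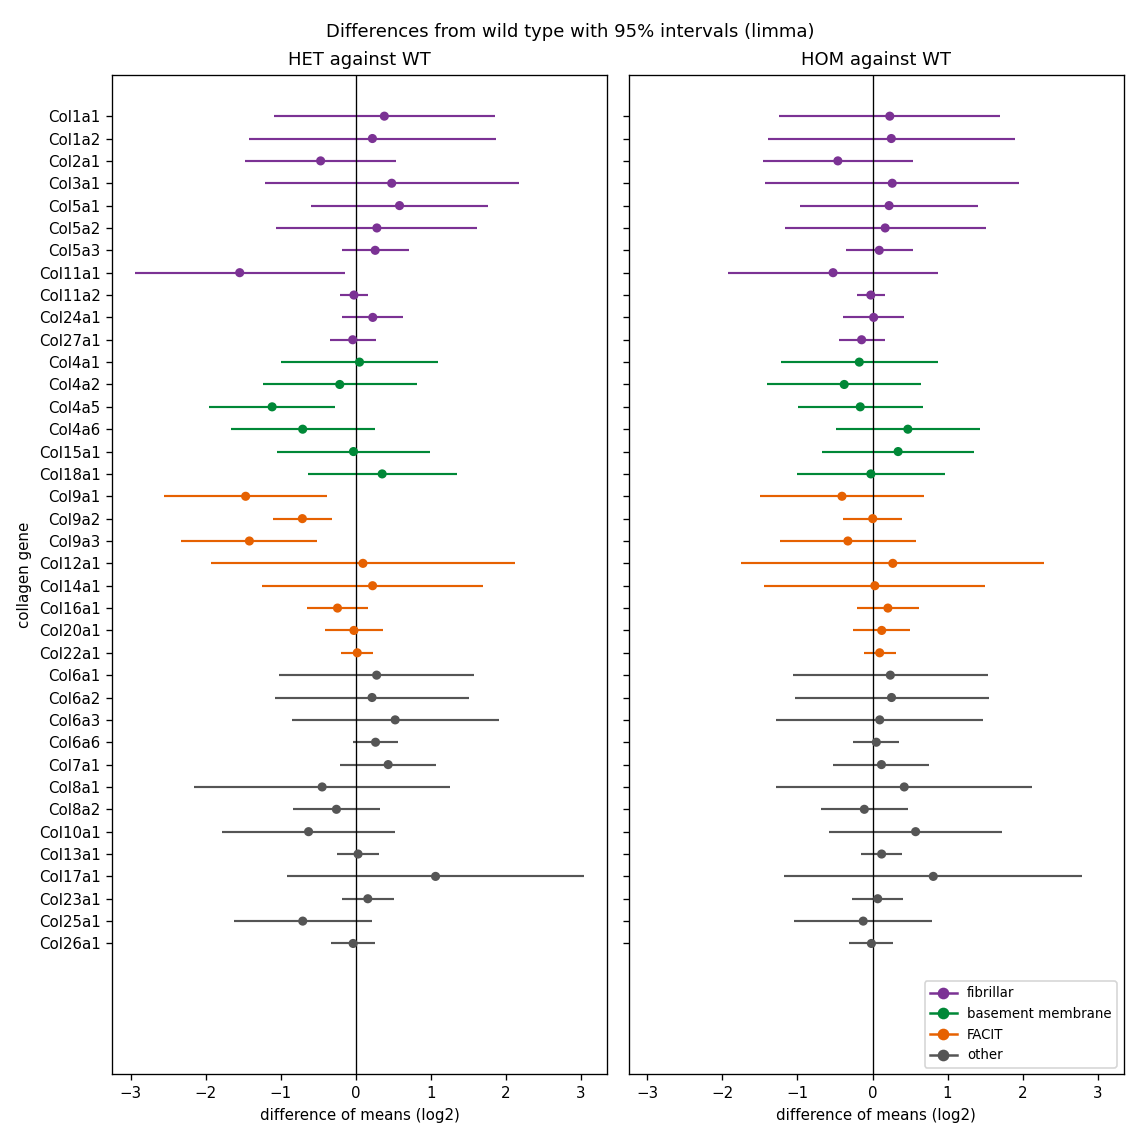
Differences of group means on the log2 scale for the 38 tested collagen genes, HET against WT (left) and HOM against WT (right), with 95% intervals from the limma fit (lines, not adjusted for the number of genes) and colors for the collagen class. The intervals of Col4a5, Col9a1, Col9a2, Col9a3 and Col11a1 lie below 0 in the left panel, and every interval in the right panel includes 0.

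Chains that assemble into one molecule, or into one fibril, were compared across the 15 tumors. Of 15 such pairs, 13 had both chains tested, and 11 of these 13 correlated after adjustment (permutation test of Pearson r with 100000 resamples). Pairs of unpartnered collagen genes were not tested as a background. An r above 0.8 was not confined to partners, since Col1a1 had it with 11 of the 37 other collagen genes, and Col4a1 with 2. Col1a1 and Col1a2 had r = 0.993 (p = 1e-05, the smallest these resamples can give, adjusted p = 1.86e-05; rho = 0.929, p = 1e-05), and r = 0.988 without WT 1 and HET 5. Col4a1 and Col4a2 had r = 0.973 (p = 1e-05, adjusted p = 1.86e-05; rho = 0.946, p = 1e-05), with r = 0.939 without WT 2 and HET 4. Col4a5 and Col4a6 had r = 0.863 (p = 7e-05, adjusted p = 0.000114; rho = 0.736, p = 0.00228), with r = 0.736 without HET 1 and HET 4.

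Col6a1 and Col6a2 correlated at r = 0.975 (p = 1e-05, adjusted p = 1.86e-05; rho = 0.975, p = 1e-05), with r = 0.952 without HET 4 and HET 5. For Col9a2 and Col9a3 the values were r = 0.823 (p = 0.00022, adjusted p = 0.000286; rho = 0.836, p = 0.00028), with r = 0.716 without HET 1 and HET 4. The 2 pairs that did not pass were Col9a1 with Col9a2 (r = 0.462, p = 0.0822, adjusted p = 0.0891; rho = 0.35, p = 0.2; r = 0.377 without WT 5 and HET 1) and Col11a1 with Col11a2 (r = -0.057, p = 0.84, adjusted p = 0.84; rho = -0.173, p = 0.533; r = -0.574 without WT 3 and HET 1). Within genotypes, after each gene was centred on its genotype mean, Col9a1 and Col9a2 had r = -0.02 and Col9a2 and Col9a3 had r = 0.661, while Col1a1 and Col1a2 had r = 0.996.

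Given as a description over the 15 tumors, the closest collagen gene lay in the same class for 18 of the 38 genes, such as Col3a1 with Col1a2 (r = 0.976), and in another class for 20. Col12a1 (FACIT) lay closest to Col1a1 (r = 0.98), Col6a2 (other) to Col5a2 (r = 0.98) and Col15a1 (basement membrane) to Col8a1 (r = 0.912). Col4a5 and Col9a3 had each other as closest collagen gene (r = 0.867).

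The family was then set beside the mean of markers of cell types that could make collagen, from lists that hold no collagen gene. The fibroblast marker mean (19 genes, among them Pdgfra, Dcn, Lum and Postn) was 7.11 to 9.35 in WT, 6.63 to 11.37 in HET and 7.79 to 10.14 in HOM. The tumors at its ends were HET 5 and WT 1 on the low side and HET 4 and HOM 5 on the high side, the same tumors as for Col1a1. Over 114 tests (38 genes against 3 lists), 16 of the 38 collagen genes correlated with the fibroblast mean after adjustment, all positively, and 14 did by Spearman rho. These were 7 of 11 fibrillar, 2 of 6 basement membrane, 2 of 8 FACIT and 5 of 13 other genes. Leaving out WT 1, HET 4 and HET 5 together, a choice made after the data were seen, left 9.

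Col3a1 correlated with the fibroblast mean at r = 0.979 (permutation p = 1e-05, adjusted p = 6.71e-05; rho = 0.907, p = 2e-05) and kept r = 0.956 without HET 4 and HET 5. Within WT, HET and HOM the Col3a1 values were r = 0.974, 0.995 and 0.95, each over 5 tumors. Col6a1 had r = 0.979 (p = 1e-05, adjusted p = 6.71e-05; rho = 0.936, p = 1e-05) and r = 0.951 without those 2 tumors, and Col6a2 had r = 0.973 (p = 1e-05, adjusted p = 6.71e-05; rho = 0.918, p = 2e-05) and r = 0.948. For Col1a1 it was r = 0.959 (p = 1e-05, adjusted p = 6.71e-05; rho = 0.754, p = 0.00169), with 0.925 without them. A correlation above 0.8 was found for 11 of the 38 collagen genes and for 2.55% of all tested genes outside the marker list.

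Other collagens did not pass against the fibroblast markers after adjustment. The lowest r were negative, while Col4a1 and Col4a2 had a positive r that did not pass. Col9a1 had r = -0.561 (p = 0.0299, adjusted p = 0.064; rho = -0.525, p = 0.0474; -0.434 without HET 4 and HET 5), Col4a5 r = -0.443 (p = 0.0976, adjusted p = 0.171; rho = -0.346, p = 0.205; -0.134) and Col22a1 r = -0.289 (p = 0.298, adjusted p = 0.414; rho = -0.264, p = 0.338; -0.278). Col9a1 passed on values centred within genotype (r = -0.641, adjusted p = 0.0242) and without WT 2 (r = -0.661, adjusted p = 0.0324). Col4a1 and Col4a2 had r = 0.55 and 0.549 with fibroblast markers (p = 0.0349 and 0.0361, adjusted p = 0.071 and 0.0722; rho = 0.468 and 0.55, p = 0.0823 and 0.0366; r = 0.626 and 0.516 without HET 4 and HET 5).

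The endothelial marker mean (16 genes, such as Pecam1, Cdh5 and Kdr) ran from 7.38 to 8.39 in WT, 7.15 to 9.70 in HET and 7.31 to 9.09 in HOM. It correlated with 17 of the 38 collagen genes after adjustment, 16 by Spearman rho, and 11 had r above 0.8 beside 3.04% of all genes outside the list. The highest were Col5a2 (r = 0.944, rho = 0.889, p = 2e-05), Col6a2 (r = 0.944, rho = 0.907, p = 1e-05) and Col6a1 (r = 0.942, rho = 0.943, p = 1e-05), each with p = 1e-05 and adjusted p = 6.71e-05 for r, and with r of 0.88, 0.886 and 0.908 without HET 4 and HET 5. Col4a1 had r = 0.676 (p = 0.00629, adjusted p = 0.0205; rho = 0.65, p = 0.0107; r = 0.715 without HET 4 and HET 5) and Col4a2 r = 0.676 (p = 0.00609, adjusted p = 0.0204; rho = 0.664, p = 0.00867; r = 0.638). Lowest were Col4a5 (r = -0.558, p = 0.0309, adjusted p = 0.064; rho = -0.357, p = 0.189; r = -0.32), Col9a1 (r = -0.532, p = 0.0409, adjusted p = 0.079; rho = -0.336, p = 0.224; r = -0.301) and Col4a6 (r = -0.394, p = 0.145, adjusted p = 0.243; rho = -0.468, p = 0.0796; r = -0.048). Without WT 2, Col4a5 and Col9a1 passed (adjusted p = 0.0494 and 0.0262). The endothelial and fibroblast means themselves correlated at r = 0.912 (permutation p = 1e-05, adjusted over 7 pairs of lists 7e-05; rho = 0.868, p = 4e-05; r = 0.845 without HET 4 and HET 5), so their relations with the collagen genes cannot be told apart.

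**Figure D4:**
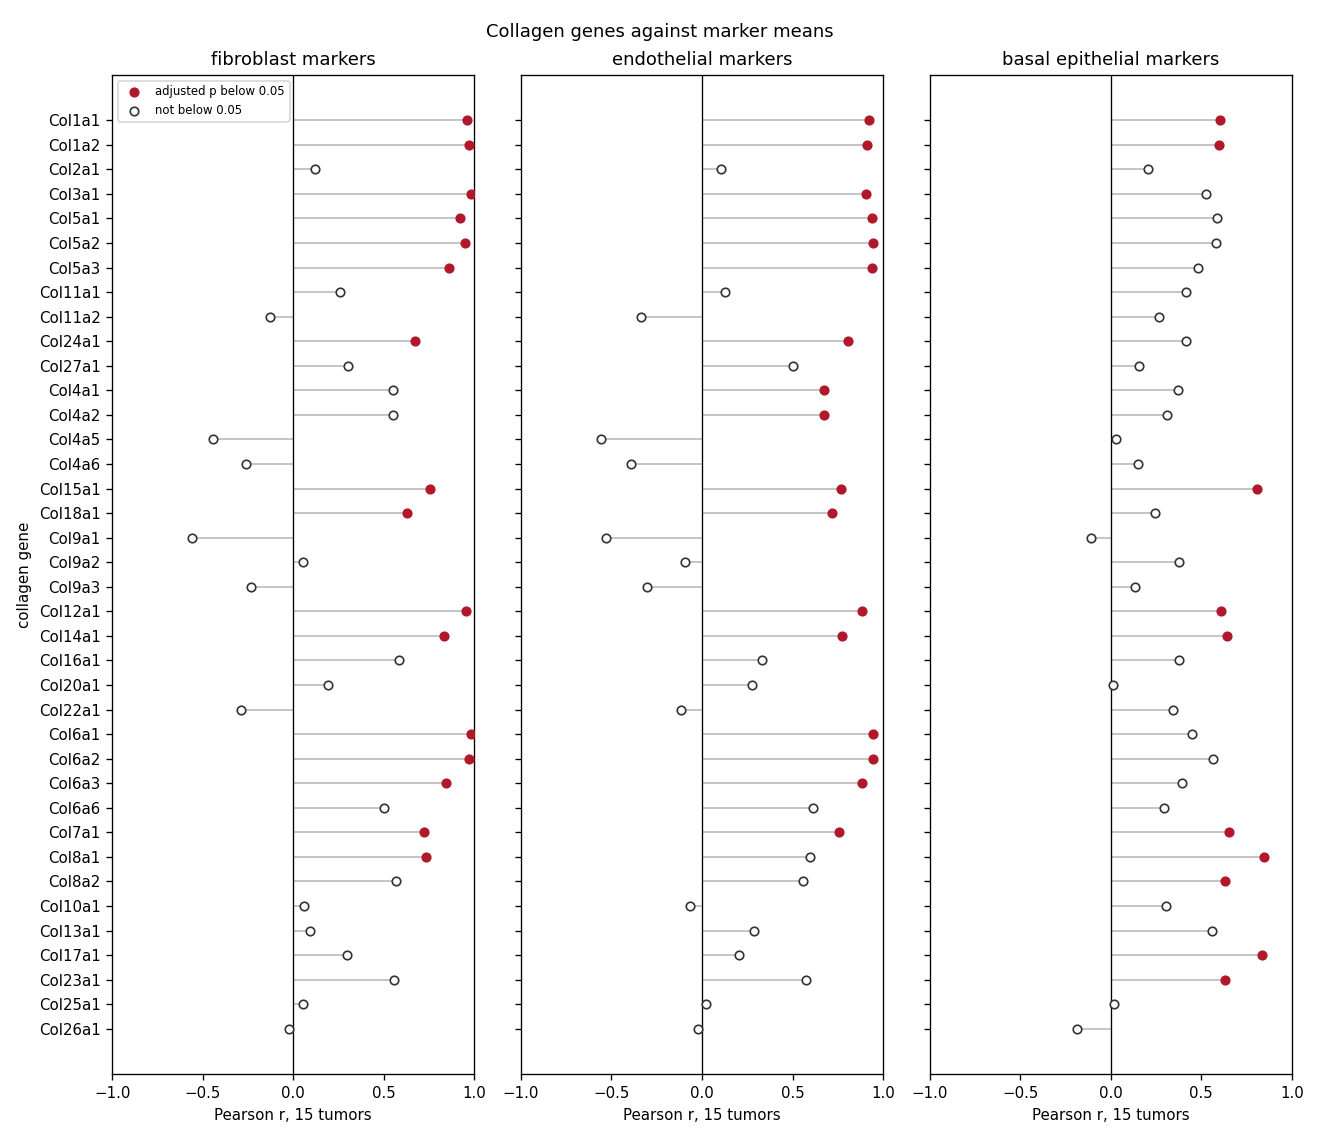
Pearson r over the 15 tumors between each of the 38 tested collagen genes (rows) and the mean of fibroblast, endothelial and basal epithelial markers (panels). Filled points passed an adjusted p of 0.05 (permutation test, 114 tests) and open points did not. Col1a1, Col3a1, Col5a1, Col5a2, Col6a1 and Col6a2 lie above 0.9 in the first 2 panels, and Col8a1, Col15a1 and Col17a1 are highest in the third.

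Basal epithelial markers (11 genes, among them Krt14, Trp63 and Acta2) were 7.36 to 8.87 in WT, 6.72 to 9.83 in HET and 8.59 to 9.01 in HOM. The list joins keratins with contractile genes, which did not run alike. HOM 5 was the lowest HOM tumor for Krt14 (11.09) and Krt17 (11.38) but the highest for Acta2 (12.25) and Cnn1 (9.24). HET 4 and HOM 5, highest in the fibroblast mean, were also highest in Acta2 and Cnn1. What each part of the list gave to the correlations below was not tested. The mean of the 11 markers correlated with 10 of the 38 collagen genes, 3 by Spearman rho, and r above 0.8 was found for 3 beside 0.197% of all genes outside the list. These 3 were Col8a1 (r = 0.847, p = 0.00035, adjusted p = 0.0016; rho = 0.714, p = 0.00338), Col17a1 (r = 0.838, p = 3e-05, adjusted p = 0.000163; rho = 0.671, p = 0.00743) and Col15a1 (r = 0.806, p = 0.00026, adjusted p = 0.00123; rho = 0.8, p = 0.00051). Without WT 1 and HET 1 they had r = 0.703, 0.745 and 0.72. Within genotypes Col17a1 had r = 0.974 in WT and 0.98 in HET but -0.849 in HOM, where the marker mean spanned only 8.59 to 9.01. The lowest were Col26a1 (r = -0.187, p = 0.502, adjusted p = 0.615; rho = -0.129, p = 0.647; 0.231 without those 2 tumors), Col9a1 (r = -0.111, p = 0.694, adjusted p = 0.776; rho = -0.243, p = 0.382; -0.53) and Col20a1 (r = 0.014, p = 0.96, adjusted p = 0.96; rho = 0.093, p = 0.743; -0.178).

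The count of 10 hung on single tumors. It was 4 without WT 1, 6 without WT 4, 16 without HET 1, 5 without HET 2, 3 without HET 4, 5 without HET 5, 6 without HOM 1 and 6 without HOM 4. Without WT 1, HET 4 and HET 5 together it was 2, and Col8a1 and Col15a1 no longer passed (adjusted p = 0.106 and 0.0995).

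Luminal epithelial markers (12 genes, such as Epcam, Krt8 and Cdh1) were set against the family after the Col4a5, Col4a6 and type IX values had been seen. Their mean was 8.11 in HET 1 and 9.34 in HET 4, and 10.12 to 11.09 in the other 13 tumors. The markers of this list did not all run alike. Krt8 measured 12.04 in HET 1 and 11.96 in HET 4, inside its range of 11.64 to 12.60. Elf5 measured 5.70 and 5.82 in these tumors, at the low end of its range of 5.70 to 9.84. What each marker gave to the correlations with the luminal mean was not tested. Of 38 collagen genes, 4 correlated with the luminal mean after adjustment over 38 tests, all positively. The share over all tested genes was not computed for this list, so whether 4 of 38 is many cannot be said. Col4a6, a basement membrane chain of epithelia, had r = 0.778 (p = 0.00034, adjusted p = 0.011; rho = 0.893, p = 4e-05) and r = 0.62 without HET 1 and HET 4. Col4a5 had r = 0.808 (p = 0.00058, adjusted p = 0.011; rho = 0.575, p = 0.0269), Col9a3 r = 0.718 (p = 0.00172, adjusted p = 0.0218; rho = 0.582, p = 0.0259) and Col9a2 r = 0.689 (p = 0.00307, adjusted p = 0.0292; rho = 0.464, p = 0.0835). Without HET 1 and HET 4 these fell to 0.418, 0.346 and 0.319, so these 3 relations rest on those 2 tumors. Fibrillar genes had a median r of -0.442 with the luminal mean, and none passed by Pearson r. By Spearman rho 2 of the 38 passed, Col4a6 and, negatively, the fibrillar Col24a1 (rho = -0.811, p = 0.00066, adjusted p = 0.0125; r = -0.531, p = 0.0708, adjusted p = 0.214; r = -0.736 without HET 1 and HET 4).

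**Figure D5:**
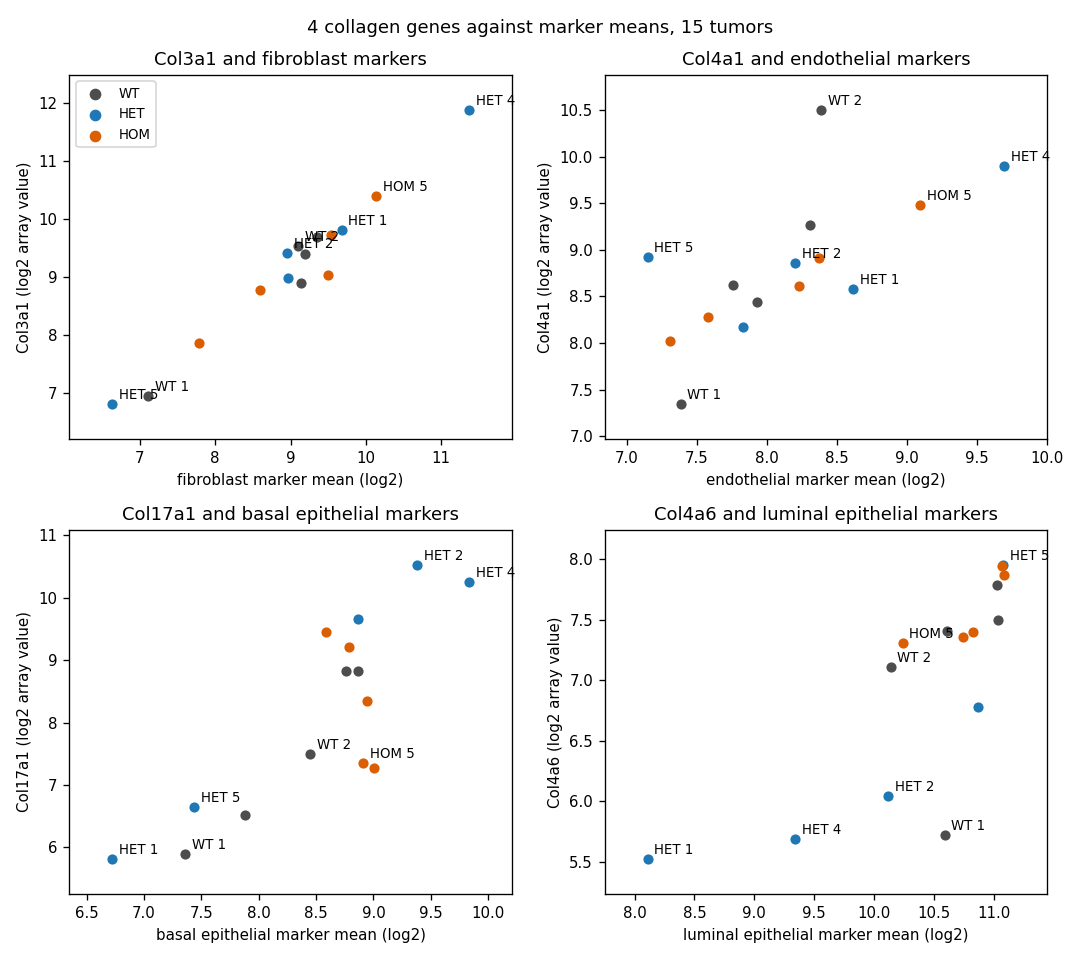
Log2 values of 4 collagen genes (vertical axes) against the mean log2 value of a marker list (horizontal axes) in the 15 tumors, colored by genotype, with 7 tumors named. Col3a1 rises with fibroblast markers from HET 5 and WT 1 to HET 4, Col4a1 lies high in WT 2 relative to endothelial markers, Col17a1 is lowest in HET 1 and highest in HET 2, and Col4a6 is low in HET 1, HET 2 and HET 4 and also in WT 1.

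Other cells in the samples varied as well. The skeletal muscle mean (7 of 14 markers tested) was 11.53 in HET 3 against 5.77 to 6.88 elsewhere, while most collagen genes of HET 3 lay near their mean. The pericyte mean was highest in HET 4 (9.74) and lowest in HET 5 (7.79), and the leukocyte mean ranged from 7.83 in WT 1 to 10.04 in HET 1. The adipocyte mean ranged from 5.84 in HET 5 to 8.91 in HOM 4. The Schwann cell mean (9 genes) was 7.28 to 7.94 in WT, 6.63 to 7.35 in HET and 7.21 to 7.67 in HOM. With the leukocyte mean as a covariate, the HET against WT differences of Col1a1, Col3a1 and Col4a1 came to -0.44, -0.52 and -0.35 and that of Col9a1 to -0.79, and none passed (lowest adjusted p from limma 0.652). The part of the other cells in the collagen values was not tested.

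Genes that act on collagen were read from the same fit, from lists chosen for their known roles. In the list of collagen biosynthesis and cross-linking, which holds prolyl and lysyl hydroxylases, the chaperone Serpinh1 and the lysyl oxidases, 31 genes were tested and 0 passed in any comparison. The smallest p in HET against WT were those of Loxl4, a lysyl oxidase (difference -1.05, adjusted p = 0.373), Tll1, a procollagen-processing protease (0.91, adjusted p = 0.377) and Crtap, a part of the prolyl 3-hydroxylation complex (0.91, adjusted p = 0.38). The median difference of the list was 0.239. In HOM against WT the smallest p were those of P3h4 (1.63), Loxl4 (-1.12) and Mia3 (-0.30), all with an adjusted p of 1. In HOM against HET they were those of Tmem38b (-0.34, adjusted p = 0.589), Tll1 (-0.81, adjusted p = 0.653) and P3h4 (1.23, adjusted p = 0.66).

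Of 13 tested collagen receptors, 0 passed. At an unadjusted p below 0.05 in the limma fit of HET against WT there were 4 of 13 receptors, beside 13.4% of all genes. That count was 1 of 31 for biosynthesis and cross-linking and 2 of 16 for degradation. Itga2, the alpha subunit of an integrin that binds collagen, differed by 1.73 in HET against WT (SE 0.53, adjusted p = 0.231) and 0.79 in HOM against WT (adjusted p = 1). The receptor tyrosine kinase Ddr1 differed by -0.76 in HET (adjusted p = 0.264), and the proteoglycan Sdc1 by 0.60 (adjusted p = 0.29). In HOM against WT, Sdc1 differed by 0.46 and the adhesion receptor Adgrg6 by -0.61 (adjusted p = 1 for both). In HOM against HET, Ddr2 differed by -1.52 (adjusted p = 0.634), Ddr1 by 0.48 (adjusted p = 0.66) and Itga2 by -0.94 (adjusted p = 0.662).

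Among 16 tested genes of collagen degradation 0 passed, with a median difference of 0.511 in HET against WT, beside -0.0299 over all genes. The neutrophil collagenase gene Mmp8 was measured at 5.65 to 7.17 in WT and 6.55 to 11.31 in HET (difference 2.85, SE 0.75, adjusted p = 0.212). Mmp9, a gelatinase, measured 6.73 to 9.81 in WT and 8.37 to 12.48 in HET (difference 2.57, SE 0.76, adjusted p = 0.224), and Mmp25, a membrane protease of leukocytes, differed by 0.62 (adjusted p = 0.382). HET 1, HET 4 and HET 2 held the highest Mmp8 and Mmp9 values, and the leukocyte mean was also highest in these 3 tumors, a relation that was not tested. In HOM against WT, Mmp9 (1.11), Ctsl (0.29) and Mmp13 (1.03) had the smallest p (adjusted p = 1), and in HOM against HET Mmp8 (-2.36, adjusted p = 0.587), Mmp25 (-0.62, adjusted p = 0.634) and Mmp9 (-1.46, adjusted p = 0.647) did.

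For 32 tested genes of other collagen-binding matrix and 23 tested regulators of collagen expression, 0 passed in any of the 3 comparisons. Both lists had members at an unadjusted p below 0.05 in HET against WT, 4 of 32 and 3 of 23 genes, which is near the 13.4% of all genes. Median differences in HET against WT were 0.25 and 0.0954, and in HOM against WT 0.16 and 0.147. Some matrix genes, such as Dcn and Lum, are also in the fibroblast marker list.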

How the data were processed

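RNA of 15 mammary tumors was read on Affymetrix arrays. Per the labels' protocols, 100 ng of total RNA was turned into biotin-labelled sense-strand cDNA. Expression Console and Transcriptome Analysis Console of Affymetrix are listed in the submitters' processing notes; the sources used here do not name the normalization. Values of 41345 transcript clusters, as the authors deposited them, span 1.06 to 13.91 and were read as log2 intensities. No detection calls or scanner files were used here, and the number of arrays limits the precision.

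The platform annotation gave 1 symbol for 23521 clusters and several for 1814. The brightest one-symbol cluster of each gene was kept. Of 47 one-symbol collagen clusters, 3 were second clusters of Col1a2, Col5a1 and Col6a1, and 1 further collagen cluster with several symbols was not used.

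A single limma fit (version 3.58.1, R 4.3.3, lmFit and eBayes, two-sided) held all 15 tumors, with Benjamini-Hochberg adjustment over 14243 genes and a threshold of 0.05. Adjusted p-values of differences are from this fit. Correlations used permutation tests with 100000 resamples, two-sided, in Python 3.11.15 with numpy 2.4.6. Ctnnb1 was compared with exact permutation tests over 252 assignments. Both the limma and the correlation steps were tested on simulated data.

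Named with values were the marker genes Col1a1, Col3a1 and Col4a1, the brightest members of each class, those with the smallest p, the largest SD or the most extreme marker correlations, the paired chains, and 3 related genes per list and comparison. Sox10, the luminal relations and the other genes named were chosen after their values were seen. The members and lists were chosen with earlier results of these data known. No batch is given in the labels. Alternatives were other filters, renewed quantile normalization, median centring, other fits, marker covariates and tumors left out.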

Additional observations from a re-analysis of the deposited data

Results flagged for a closer look

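Within genotypes of 5 tumors, 111 groups of values were searched for a tumor far from the others. The gap to the nearest tumor had to exceed 0.71 of the group's range. The groups were those of 32 named collagen genes, the class means and Ctnnb1. Chance alone flags about 1 in 20 groups that were not picked by their values. Some of the 32 genes were picked for a large SD or a small p in these data, so that share does not hold here. Groups of genes that move together are also not independent. In all 13 such values were found, and they came from 3 tumors, WT 1, WT 5 and HOM 5.

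WT 1 lay far below the other 4 WT tumors for 9 genes. Its values were 8.51 for Col1a1 (others 10.78 to 11.05), 7.56 for Col1a2 (others 9.97 to 10.21), 6.95 for Col3a1 (others 8.90 to 9.69), 6.27 for Col5a1 (others 7.73 to 8.0) and 6.24 for Col5a2 (others 7.98 to 8.32). They were 7.86 for Col6a1 (others 9.29 to 9.80), 7.29 for Col6a2 (others 8.68 to 9.20), 7.49 for Col8a1 (others 9.94 to 10.32) and 7.31 for Col12a1 (others 10.43 to 10.99). The mean of the 11 fibrillar genes was 6.52 in WT 1 and 7.80 to 8.19 in the other WT tumors. The fibroblast marker mean of WT 1 was 7.11, the lowest of the WT tumors.

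Col2a1 was high in WT 5 at 9.36 (other WT tumors 6.19 to 6.95) and in HOM 5 at 7.36 (other HOM tumors 6.36 to 6.60). Col20a1 was high in HOM 5 at 6.87 (other HOM tumors 5.83 to 6.02). WT 5 and HOM 5 are also the tumors whose Ctnnb1 values went against their labels.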

How the results depend on the processing

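The count of 0 collagen genes past the threshold held in all 3 genotype comparisons under every alternative run and with each tumor left out, among them the setting that left out HET 3, where 48 genes of the whole table passed in HET against WT. The differences of Col9a2, Col9a3, Col9a1, Col4a5 and Col11a1 in HET against WT kept their sign throughout, at -0.90 to -0.59, -1.82 to -1.19, -1.76 to -0.79, -1.54 to -0.86 and -2.69 to -1.17. The Col9a1 value nearest 0 came with the leukocyte covariate and the lowest Col11a1 value without WT 1, HET 4 and HET 5. The adjusted p from limma lay between 0.0899 and 0.599 for Col9a2, 0.0766 and 0.603 for Col9a3 and 0.108 and 0.652 for Col9a1. It lay between 0.0666 and 0.652 for Col4a5 and between 0.0812 and 0.603 for Col11a1. No paired analysis was possible because the tumor numbers follow accession order and pair no tumors across genotypes.

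The differences of Col1a1, Col3a1 and Col4a1 were small and changed sign, and the cause was not tested. In HET against WT, array weights gave -0.13 for Col4a1, a fibroblast covariate -0.078 for Col4a1, a leukocyte covariate -0.44, -0.52 and -0.35 for the 3 genes, the fit without WT 5 and HOM 5 -0.048 for Col4a1, and the fit without WT 1, HET 4 and HET 5 (added after the data were seen) -0.13 for Col1a1 and -0.67 for Col4a1. In HOM against WT, Col1a1 and Col3a1 came to -0.067 and -0.050 with array weights, -0.073 and -0.095 with the fibroblast covariate, -0.054 and -0.084 with the leukocyte covariate and -0.25 and -0.22 without WT 1, HET 4 and HET 5, and Col1a1 to -1.25e-05 without WT 5 and HOM 5. In HOM against HET the leukocyte covariate gave 0.38, 0.43 and 0.037, and the fit without WT 1, HET 4 and HET 5 gave 0.12 for Col4a1.

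With single tumors left out, the HET against WT differences ranged from -0.15 to 0.88 (Col1a1), -0.15 to 1.12 (Col3a1) and -0.32 to 0.47 (Col4a1). In HOM against WT they ranged from -0.25 to 0.45 (Col1a1), -0.22 to 0.59 (Col3a1), -0.55 to 0.24 (Col4a1) and -0.70 to 0.094 (Col2a1). In HOM against HET they ranged from -0.65 to 0.38 (Col1a1), -0.86 to 0.41 (Col3a1) and -0.43 to 0.027 (Col4a1). The Ctnnb1 difference ranged from -0.49 to -0.27 in HET against WT and from -0.51 to -0.28 in HOM against WT, in both with the lowest value without WT 5 (exact permutation p = 0.00794 and 0.0317), and from -0.15 to 0.061 in HOM against HET.

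The number of collagen genes correlated with fibroblast markers fell from 16 to 9 without WT 1, HET 4 and HET 5. For basal epithelial markers it was 10, but 6 with median centring, 3 by Spearman rho, 2 without those 3 tumors and 3 to 16 with single tumors left out. Against basal markers, r of Col20a1 was -0.046 with renewed quantile normalization, -0.075 with median centring and -0.056 on values centred within genotype, and -0.203 to 0.087 with single tumors left out. For Col26a1 that range was -0.32 to 0.075, and for Col9a1 -0.61 to 0.163, with 0.448 without WT 1, HET 4 and HET 5. The counts for endothelial markers (12 to 20) and chain pairs (11 to 12) stayed within 1.5 times their main values.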
